A study of Arabidopsis thaliana with 6 samples.

Results

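The phloem DOF transcription factor genes *PEAR1* (AT2G37590), *PEAR2* (AT5G02460), *DOF6* (AT3G45610), *TMO6* (AT5G60200), *HCA2* (AT5G62940) and *OBP2* (AT1G07640) were followed at the base of the *Arabidopsis thaliana* inflorescence stem. They are 6 of the 33602 loci in the deposited read count table, chosen by locus code, and 6 of 6 passed the filter on low counts that left 20296 loci tested. In stems labelled *smxl4 smxl5*, *DOF6* fell about 4-fold, from 3.56 ± 0.10 to 0.881 ± 0.20 CPM (read counts scaled to library size, SD, n = 3), and *HCA2* fell from 9.04 ± 0.60 to 6.33 ± 0.43 CPM. *OBP2*, *PEAR1*, *TMO6* and *PEAR2* did not pass the threshold with all libraries, with log2 fold changes between -0.44 and -0.08. No member rose.

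DOF proteins are plant transcription factors that bind DNA through a single zinc finger, held by cysteines, and recognise short sites with an AAAG core. In the root, PEAR1, PEAR2, DOF6, TMO6, HCA2 and OBP2 are known to be made in or next to the early phloem, to be induced by cytokinin, and to move into neighbouring cells, where they promote the divisions that widen the vascular cylinder. Class III HD-ZIP factors restrict this activity towards the centre of the root. The SMXL genes *SMXL3*, *SMXL4* and *SMXL5* are also known to promote phloem formation.

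Expression was measured by RNA sequencing in 3 libraries labelled *smxl4 smxl5* and 3 labelled wild type, each a pool of 3 stem fragments of 1 cm that included the stem base of plants 15 to 20 cm tall. All shoots, wild type included, had been grafted as seedlings onto wild-type roots, and plants grew in short days and then in long days, so the groups differed by genotype above the graft. The labels give no allele for *smxl4* or *smxl5*, and each wild-type description reads replicate 1, though the titles number these libraries 1 to 3. *SMXL4* was at 13.4, 15.3 and 11.2 CPM in the mutant-labelled libraries and 12.1, 10.2 and 11.1 CPM in wild type, and *SMXL5* at 116, 116 and 82.0 CPM against 112, 97.5 and 99.4 CPM. Their log2 fold changes were 0.26 ± 0.13 and 0.02 ± 0.14 (SE), with edgeR adjusted p of 0.179 and 0.920, so whole-gene counts do not check the genotype labels. Totals ran from 21364628 to 49929595 counts. Mutant-labelled replicates 2 and 3 stood apart from each other on the second principal component, at 24.3 and -32.7, with 17.1% of the variance.

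The zinc finger is what makes these genes a family, and the DNA that encodes it shows how alike they are in that stretch. In each of *PEAR1*, *PEAR2*, *DOF6*, *TMO6* and *OBP2* the finger from its first to its last metal-binding cysteine was encoded by 87 bases within a single exon. These stretches are given 5′ to 3′ on the coding strand, from the RefSeq annotation of TAIR10.1, with the codons of the 4 metal-binding cysteines in capitals.

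PEAR1: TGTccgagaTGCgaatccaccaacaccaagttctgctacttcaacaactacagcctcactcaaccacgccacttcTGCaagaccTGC
PEAR2: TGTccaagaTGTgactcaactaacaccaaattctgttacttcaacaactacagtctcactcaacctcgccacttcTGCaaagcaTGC
DOF6: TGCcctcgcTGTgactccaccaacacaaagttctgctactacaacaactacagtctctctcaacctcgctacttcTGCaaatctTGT
TMO6: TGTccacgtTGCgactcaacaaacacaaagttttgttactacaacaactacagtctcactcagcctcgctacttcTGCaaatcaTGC
OBP2: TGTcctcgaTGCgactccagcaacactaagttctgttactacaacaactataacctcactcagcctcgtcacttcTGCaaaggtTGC

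They lie at chr2:15769775-15769861 on the plus strand for *PEAR1*, chr5:540374-540460 on the minus strand for *PEAR2*, chr3:16740058-16740144 on the minus strand for *DOF6*, chr5:24241346-24241432 on the plus strand for *TMO6* and chr1:2355382-2355468 on the minus strand for *OBP2*. Of the 29 residues encoded, pairs of these 5 genes shared between 24 and 28, the latter for *DOF6* and *TMO6*. The finger pattern was present in all 36 annotated DOF loci, though its cysteine spacing matched 138 loci in the whole annotation. *DOF6* and *TMO6*, with the most alike fingers of these pairs, had the largest and the second smallest fold change of the 6 members. When whole transcripts were searched, the best local alignment of at least 50 bases to another locus covered 101 to 174 bases. These alignments were 81.3% to 86.1% identical. Within the 87 bases of the finger alone, *PEAR2* and *TMO6* were 87.4% identical. No member's exons overlapped those of another annotated locus.

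*DOF6*, whose product is also known as a repressor of seed germination, fell most. It had 26, 24 and 27 reads in mutant-labelled replicates 1, 2 and 3, against 120, 165 and 171 reads in wild type. Scaled to library size, these were 0.778, 1.12 and 0.748 CPM against 3.57, 3.66 and 3.45 CPM. Every mutant-labelled library lay far below every wild-type library. The log2 fold change was -2.04 ± 0.19 (SE), with a 95% interval from -2.49 to -1.59 and an adjusted p of 0.00174 in edgeR's quasi-likelihood test, and 0.374% of tested genes had a more negative fold change. Without any single library it stayed between -2.23 and -1.94, with edgeR adjusted p of at most 0.0121.

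*HCA2*, named for the high cambial activity of a dominant mutant, was at 6.65, 6.51 and 5.85 CPM in the mutant-labelled libraries and 8.52, 8.91 and 9.69 CPM in wild type. The groups did not overlap. Its log2 fold change was -0.52 ± 0.10, with a 95% interval from -0.76 to -0.28 (edgeR adjusted p = 0.0128). The call was lost without wild type replicate 2, where the log2 fold change was -0.53 and the edgeR adjusted p was 0.0509. In bulk stem RNA, fewer cells that express a gene and less of its RNA per cell cannot be told apart.

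*OBP2*, whose product is known as an activator of indole glucosinolate genes in vascular tissue, was at 8.98, 8.79 and 12.3 CPM in mutant-labelled replicates 1, 2 and 3 and at 12.8, 13.3 and 14.6 CPM in wild type. Replicate 3 was the highest mutant-labelled library and lay just below the lowest wild-type one. The log2 fold change was -0.44 ± 0.14, with a 95% interval from -0.76 to -0.11 (edgeR adjusted p = 0.0559). The gene passed the threshold without mutant-labelled replicate 3, with -0.61 ± 0.10 and an edgeR adjusted p of 0.00700. It also passed in DESeq2 (adjusted p = 0.0368) and with no filter on low counts (edgeR adjusted p = 0.0431). In the authors' deposited table, whose sign was wild type over mutant, *OBP2* had a log2 fold change of 0.41 and an adjusted p of 0.0362.

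*TMO6*, a direct target of the auxin response factor MONOPTEROS in the embryo, was at 42.0, 38.6 and 42.7 CPM in the mutant-labelled libraries and 47.1, 50.3 and 44.0 CPM in wild type. The groups did not overlap, although the nearest libraries were close. The log2 fold change was -0.20 ± 0.08, with a 95% interval from -0.38 to -0.015 (edgeR adjusted p = 0.103).

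*PEAR1* and *PEAR2*, which gave the PEAR group its name (phloem early DOF), did not pass the threshold with all libraries. *PEAR1* was at 5.06, 6.23 and 5.29 CPM in the mutant-labelled libraries and 7.74, 8.36 and 5.75 CPM in wild type. Wild type replicate 3 lay within the range of the mutant-labelled libraries. The log2 fold change was -0.40 ± 0.16, with a 95% interval from -0.78 to -0.019 (edgeR adjusted p = 0.111), and without wild type replicate 3 the gene passed the threshold at -0.56 (edgeR adjusted p = 0.0320). *PEAR2* was at 3.38, 4.18 and 3.83 CPM against 4.29, 4.12 and 3.59 CPM. These ranges overlapped almost entirely. The log2 fold change was -0.08 ± 0.14, with a 95% interval from -0.41 to 0.25 (edgeR adjusted p = 0.711). The point estimates of *DOF6* and *HCA2* lie outside this interval. The interval of *HCA2*, from -0.76 to -0.28, overlaps it, and the difference between these genes was not tested.

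**Figure D1:**
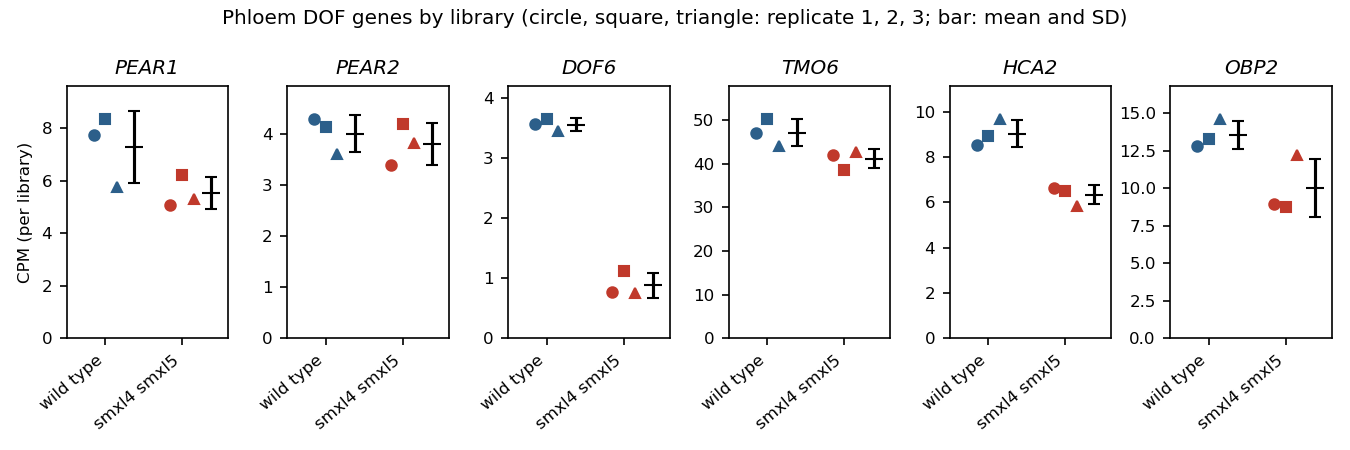
CPM of each phloem DOF gene in every library, with wild type in blue, *smxl4 smxl5* in red and the mean ± SD (n = 3) beside each group; each panel has its own axis from 0. The mutant-labelled libraries sit between 0.748 and 1.12 CPM for *DOF6*, below the wild-type range of 3.45 to 3.66, while the ranges of *PEAR1* and *PEAR2* overlap.

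In all, 2 of the 6 members fell and 0 rose in edgeR's test, where 13.7% of all tested genes fell, 11.2% rose and 24.9% did either. At an unadjusted p under 0.05, 5 members were lower and 0 higher, where 20.0% of tested genes were lower and 20.0% higher. DESeq2 called 3 members lower and 0 higher, and 13.6% of its tested genes lower and 11.0% higher. Only 1 member fell without wild type replicate 2. The groups did not overlap for 4 members, all lower in the mutant-labelled libraries, where 22.0% of tested genes were separated in that direction, 23.3% in the other and 45.3% in either. The median log2 fold change of the members was -0.42 and that of all tested genes 0.02. In the authors' deposited table, *DOF6* had a log2 fold change of 1.72 and *HCA2* of 0.50 towards wild type, with adjusted p of 4.00e-12 and 0.00339. In the authors' deposited table the adjusted p was 0.124 for *PEAR1*, 0.131 for *TMO6* and 0.790 for *PEAR2*.

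Levels per length set the members beside each other. Dividing CPM by kilobases of annotated exon, *TMO6* was highest in wild type at 29.2 ± 1.93 CPM per kb (SD, n = 3). *HCA2* followed at 5.48 ± 0.36, *PEAR1* at 4.83 ± 0.90, *OBP2* at 4.01 ± 0.28, *DOF6* at 2.93 ± 0.086 and *PEAR2* at 2.28 ± 0.21 CPM per kb. The ranges over libraries of *HCA2* and *PEAR1* overlapped, as did those of *PEAR1* and *OBP2*, so these neighbours cannot be ordered. *DOF6* ran from 2.84 to 3.01 CPM per kb in wild type and *PEAR2* from 2.04 to 2.44. In the mutant-labelled libraries *DOF6* ran from 0.616 to 0.918 and *PEAR2* from 1.92 to 2.38 CPM per kb. The order of these 2 genes was therefore the opposite in the genotypes, with no overlap in either. The other neighbours kept their order of means, and in the mutant-labelled libraries the ranges of *HCA2*, *PEAR1* and *OBP2* overlapped.

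**Figure D2:**
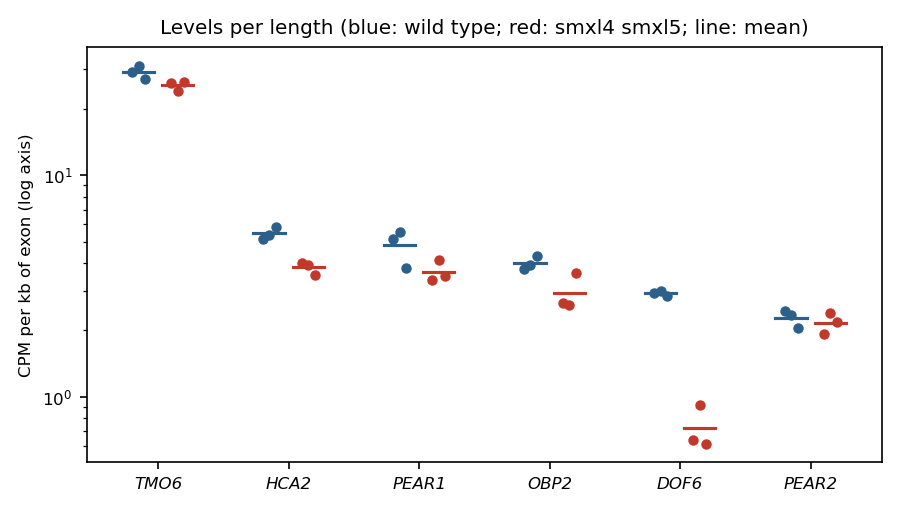
CPM per kilobase of exon on a log axis for each phloem DOF gene in the 3 wild-type (blue) and 3 *smxl4 smxl5* (red) libraries, with the group mean as a line. *TMO6* stands near 29.2 in wild type, and *DOF6* lies above *PEAR2* in wild type and below it in the mutant-labelled libraries.

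The sum over the 6 members ran from 46.2 to 51.4 CPM per kb in wild type and from 37.9 to 39.9 CPM per kb in the mutant-labelled libraries. *DOF6* made up 6.02 ± 0.15% of that sum in wild type and 1.87 ± 0.48% in the mutant-labelled libraries, and *TMO6* 59.9 ± 0.78% and 65.6 ± 2.19% (SD, n = 3). For both shares the groups did not overlap and the two-sided exact permutation test gave p = 0.1, the smallest that 3 against 3 libraries allow (0.2 adjusted over the 6 shares). The share of *HCA2* was 11.3 ± 1.24% in wild type and 9.90 ± 0.89% in the mutant-labelled libraries (exact permutation p = 0.1, 0.2 adjusted). That difference of -1.38 percentage points was -0.66 without wild type replicate 3 and -0.87 without mutant-labelled replicate 3. For *PEAR1*, *PEAR2* and *OBP2* the ranges of the shares overlapped between the genotypes, with exact permutation p of 1, 0.2 and 0.5. For *OBP2* the exons of 3 annotated transcripts cover 3383 bases, and the median transcript has 2957.

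The promoter of *DOF6* is shown because this gene fell most. The 250 bases before its annotated start (TAIR10.1, chr3:16740547-16740796, minus strand, from RefSeq) are given 5′ to 3′ with matches to the auxin response element TGTCTC on either strand in capitals.

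DOF6: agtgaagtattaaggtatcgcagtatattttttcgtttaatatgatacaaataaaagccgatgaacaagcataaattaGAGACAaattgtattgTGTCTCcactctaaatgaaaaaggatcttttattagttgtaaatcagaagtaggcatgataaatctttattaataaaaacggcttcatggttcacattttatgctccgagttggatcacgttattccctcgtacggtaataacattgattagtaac

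Such a match was found 2 times in this window, 0 times in the same window of the other 5 members, and at least once before 10.9% of 27443 protein-coding genes. The share of genes with 2 or more such matches was not computed, and a role of the element was not tested. The Dof core AAAG was found on either strand 4 times before *DOF6*, 3 times before *PEAR2*, 2 times before *PEAR1* and *HCA2* and once before *TMO6* and *OBP2*, where the median over all promoters was 4 and 98.0% had a match. The auxin element variant TGTCGG and the G-box CACGTG, searched likewise, had 0 matches before any member and occur before 4.16% and 6.49% of genes. The type-B response regulator core AGATNT occurred 2 times before *TMO6*, once before *PEAR1*, *DOF6* and *OBP2* and 0 times before *PEAR2* and *HCA2*, with a match before 57.9% of genes.

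The wider DOF family split in both directions. Of the other 30 DOF loci, 22 were tested, and 6 fell and 6 rose, with a median log2 fold change of 0.09. Among all tested genes 13.7% fell and 11.2% rose. The 8 loci not tested had at most 9 reads in any library. Among the 22 tested, AT2G28810 fell most, from 26.3 ± 1.70 to 14.3 ± 1.37 CPM (log2 fold change -0.89 ± 0.10, edgeR adjusted p = 0.00248). *OBP1*, whose product is known to promote entry into the cell cycle, changed by -0.56 ± 0.08, AT1G47655 by -0.55 ± 0.08 and *ADOF1* by -0.53 ± 0.14 (edgeR adjusted p = 0.00442, 0.00523 and 0.0310). Among those that rose, AT1G69570 changed by 1.03 ± 0.30, AT1G64620 by 0.58 ± 0.12, *CDF2* by 0.57 ± 0.08 and AT1G29160 by 0.54 ± 0.13 (edgeR adjusted p = 0.0409, 0.0144, 0.00469 and 0.0233). *CDF2* encodes a cycling DOF factor, which represses flowering genes in the morning. AT1G69570 shares 1154 exon bases with AT1G69572 on the opposite strand, and the strand setting of the counts is not given in the sources used here.

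The most abundant of the other DOF genes by CPM did not pass the threshold. AT4G24060 had a log2 fold change of 0.27 ± 0.09 with an edgeR adjusted p of 0.0712, and *OBP4* of 0.21 ± 0.08, with an unadjusted p of 0.0415 that missed the threshold after adjustment. No other tested DOF gene had a fold change as negative as that of *DOF6*, and of the 28 tested, 8 fell and 6 rose. The counts moved with single libraries: 3 of the others fell without wild type replicate 1 or without wild type replicate 2, while 1 rose without mutant-labelled replicate 1 and 2 rose without wild type replicate 1 or without wild type replicate 2.

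**Figure D3:**
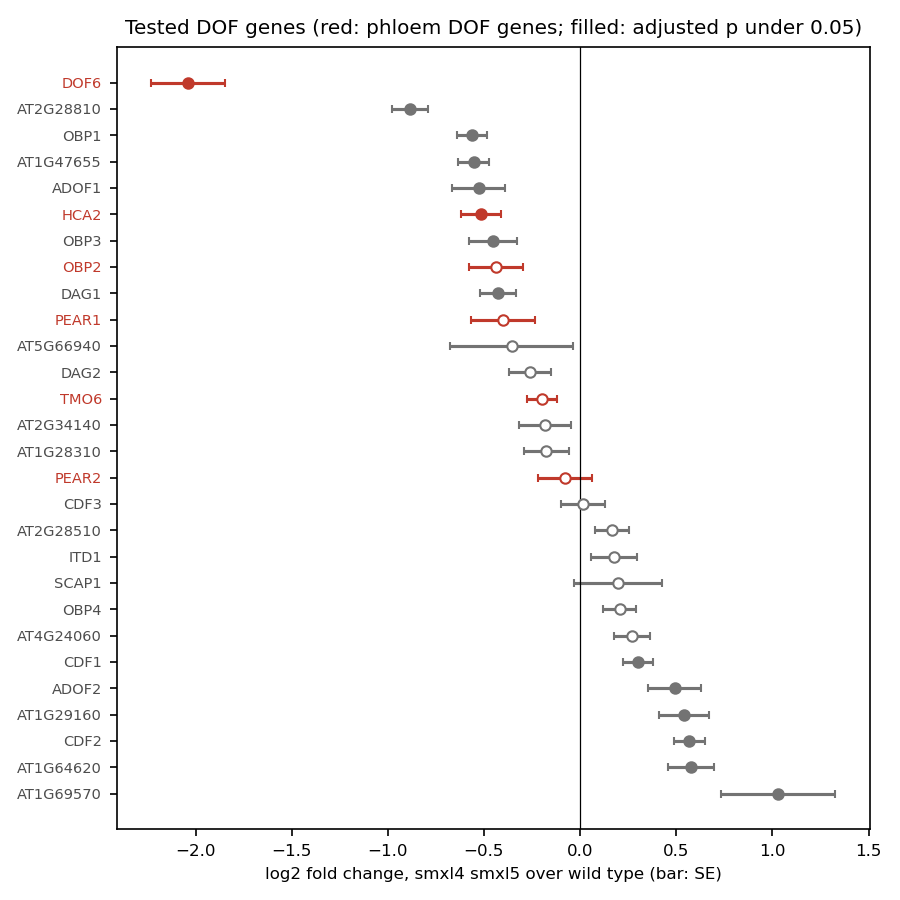
Log2 fold change of *smxl4 smxl5* over wild type with its SE for the 28 tested DOF genes, ordered by size; phloem DOF genes are red, other DOF genes grey, and filled points passed an adjusted p of 0.05. *DOF6* stands alone at -2.04, and the next is AT2G28810 at -0.89.

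Genes that act upstream of the phloem DOF factors were examined next. TMO5 and its relative T5L1 pair with LHW to raise cytokinin synthesis through LOG enzymes, and cytokinin is then sensed by AHK receptors and answered by type-B ARR factors. Of 13 genes in this list 11 were tested, with a median of -0.13. Among these 2 fell and 0 rose, where 13.7% of all tested genes fell and 11.2% rose. *TMO5* fell from 11.3 ± 1.42 to 6.24 ± 1.11 CPM (log2 fold change -0.84 ± 0.15; adjusted p in edgeR 0.00961). *T5L1* fell from 58.6 ± 9.18 to 31.9 ± 8.99 CPM (log2 fold change -0.87 ± 0.23; adjusted p in edgeR 0.0365). The most abundant member, the cytokinin receptor gene *AHK4*, had a log2 fold change of -0.14 ± 0.15, with an adjusted p in edgeR of 0.504. *LHW* was listed at 0 in every library. Only 1 gene of the list fell without mutant-labelled replicate 1, without wild type replicate 1 or without wild type replicate 2, and likewise with no filter on low counts.

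Type-A response regulators are induced by cytokinin and dampen its signal. Of 10 genes 7 were tested, with a median of 0.13. Here 2 rose and 0 fell, where 11.2% of all tested genes rose and 13.7% fell. *ARR6* rose from 29.0 ± 6.40 to 51.7 ± 9.21 CPM (log2 fold change 0.83 ± 0.19; adjusted p in edgeR 0.0222) and *ARR8* from 42.1 ± 2.51 to 51.8 ± 3.89 CPM (log2 fold change 0.30 ± 0.08; adjusted p in edgeR 0.0364). Both overlap a locus on the opposite strand, over 348 and 299 exon bases. The most abundant, *ARR4*, had a log2 fold change of 0.14 ± 0.13, with an adjusted p in edgeR of 0.433. None of the 7 rose without mutant-labelled replicate 1 or 2, or without wild type replicate 1 or 2, by edgeR's test.

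Of the 5 class III HD-ZIP genes, which oppose the phloem DOF factors in the root, 2 fell and 0 rose, with a median of -0.27. The shares of all tested genes that fell and rose were 13.7% and 11.2%. *PHB* fell from 164 ± 16.2 to 115 ± 13.0 CPM (log2 fold change -0.51 ± 0.11; adjusted p in edgeR 0.0165) and *REV* from 177 ± 15.8 to 139 ± 12.4 CPM (log2 fold change -0.35 ± 0.10; adjusted p in edgeR 0.0396). The most abundant, *ATHB15*, had -0.17 ± 0.09 (edgeR adjusted p = 0.209). The count was 0 without mutant-labelled replicate 1, without wild type replicate 1 or without wild type replicate 2, and 1 without mutant-labelled replicate 3.

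Regulators that act with or after these factors in the early phloem were lower in part. Of 9 genes 8 were tested, with a median of -0.45. In this list 3 fell and 0 rose, where 13.7% of all tested genes fell and 11.2% rose. *BRX*, a regulator of protophloem differentiation, fell from 2.30 ± 0.15 to 1.21 ± 0.18 CPM (log2 fold change -0.94 ± 0.18; adjusted p in edgeR 0.0118). *CLE25*, which encodes a small signalling peptide, changed by -0.53 ± 0.14 (edgeR adjusted p = 0.0280). The polarly localised protein gene *OPS*, the most abundant, had -0.22 ± 0.08 (edgeR adjusted p = 0.0795). *SMXL3*, singled out after its values were seen as a known target of PEAR factors, was at 10.4, 10.4 and 12.3 CPM in the mutant-labelled libraries and 15.8, 11.6 and 11.8 CPM in wild type. These ranges overlapped, and the log2 fold change was -0.24 ± 0.14 (edgeR adjusted p = 0.243). Without wild type replicate 2 only 1 gene of the list fell.

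*TMO6* is also known from a network in the stem with the receptor kinase gene *PXY* and the transcription factor genes *WOX14* and *LBD4*. Of 5 genes tested around it (with *WOX4* and *GATA20*), 4 fell and 0 rose, with a median of -0.52. Among all tested genes 13.7% fell and 11.2% rose. *GATA20*, which encodes a GATA-type transcription factor, fell from 3.29 ± 0.60 to 0.666 ± 0.20 CPM (log2 fold change -2.34 ± 0.27; adjusted p in edgeR 0.00276). *WOX14* changed by -0.55 ± 0.15 and *PXY* by -0.37 ± 0.11 (edgeR adjusted p = 0.0326 and 0.0450). The log2 fold change of *TMO6* itself was -0.20. The number that fell was 2 of 5 when mutant-labelled replicate 1 was left out, and also 2 without wild type replicate 1 or without wild type replicate 2.

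*OBP2* was set beside indole glucosinolate genes, since overexpression of *OBP2* is known to raise *CYP83B1*. Of 9 genes 8 were tested, with a median of 0.42. Here 1 rose and 0 fell, where 11.2% of all tested genes rose and 13.7% fell. *CYP79B3*, an enzyme gene of the first step of the pathway, rose from 97.2 ± 15.6 to 196 ± 48.1 CPM (log2 fold change 1.01 ± 0.19; adjusted p in edgeR 0.0133). The most abundant, *SUR1*, had -0.04 ± 0.14 (edgeR adjusted p = 0.840). *CYP83B1*, singled out after its values were seen, was at 344, 295 and 580 CPM in mutant-labelled replicates 1, 2 and 3 and at 239, 215 and 264 CPM in wild type (log2 fold change 0.76 ± 0.26; adjusted p in edgeR 0.0731). Mutant-labelled replicate 3 was the highest of its group for *CYP83B1* as for *OBP2*. The number that rose was 2 without mutant-labelled replicate 2 or 3 and 0 without wild type replicate 1, and 3 in DESeq2.

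**Figure D4:**
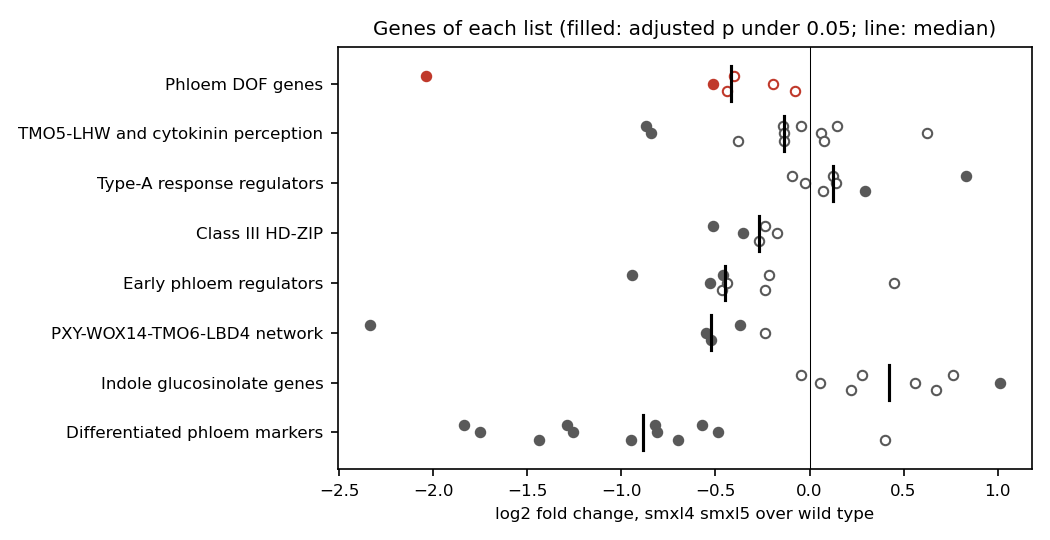
Log2 fold change of *smxl4 smxl5* over wild type for the tested genes of each list, 1 point a gene, filled where the adjusted p was under 0.05, with the list median as a line. The phloem DOF genes, in red, have a median of -0.42, between the early phloem regulators at -0.45 and the class III HD-ZIP genes at -0.27, and the differentiated phloem markers have -0.88.

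Markers of tissues in the stem moved with genotype too. For comparison, 13.7% of all tested genes fell and 11.2% rose. Of 12 markers of differentiated phloem 11 fell and 0 rose, with a median of -0.88, none was at 0, and their summed level ran from 570 to 594 CPM in the mutant-labelled libraries and from 805 to 910 CPM in wild type. The most abundant of them, the sulfate transporter gene *SULTR2;1*, had a log2 fold change of 0.40 ± 0.14, with an adjusted p in edgeR of 0.0651. Of 10 xylem markers 8 fell, with sums of 2636 to 3272 CPM against 4226 to 5225 CPM, and the most abundant, *IRX5*, changed by -0.77 ± 0.13 (edgeR adjusted p = 0.00714). Of 6 green tissue markers 6 fell, with sums of 8125 to 10292 CPM against 13397 to 14415 CPM, and *CAB1*, the most abundant, changed by -0.45 ± 0.12 (edgeR adjusted p = 0.0318). Of 6 epidermis markers 2 fell, with sums of 336 to 387 CPM against 428 to 670 CPM, and *KCS6*, the most abundant, had -0.17 ± 0.14 (edgeR adjusted p = 0.386). The part of these shifts in the values of the DOF genes was not tested.

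To place the members against the phloem markers, the mean log2 CPM of the 12 markers was subtracted from each member's log2 CPM in each library, a measure added after the values were seen. *DOF6* was at -2.57 ± 0.036 in wild type and -3.63 ± 0.27 in the mutant-labelled libraries (SD, n = 3), a difference of -1.07. On this scale the other 5 members were higher in the mutant-labelled libraries, by 0.90 for *PEAR2*, 0.78 for *TMO6*, 0.59 for *PEAR1*, 0.52 for *OBP2* and 0.46 for *HCA2*. The subtracted marker mean was itself lower in the mutant-labelled libraries, as 11 of the 12 markers fell (median log2 fold change -0.88). A gene that fell by less than the marker mean therefore comes out higher here. For none of the 6 members did the groups overlap, and each two-sided exact permutation p was 0.1, the smallest the design allows (0.1 adjusted over the 6). The share of all tested genes whose groups separate on this scale was not computed, so whether the separation is particular to the members is not known. The 12 markers varied among themselves, with log2 fold changes from -1.83 for *NAC086* to 0.40 for *SULTR2;1*. *HCA2* at -0.52 lay within that range, beside *PP2-A1* at -0.49 and *CALS7* at -0.57, and *DOF6* at -2.04 lay just below it.

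**Figure D5:**
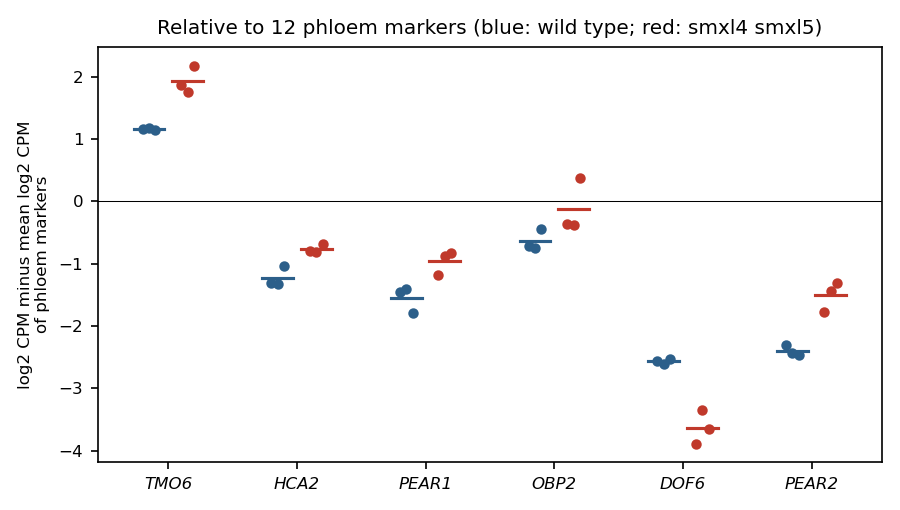
Log2 CPM of each phloem DOF gene minus the mean log2 CPM of 12 differentiated phloem markers in the same library, for wild type (blue) and *smxl4 smxl5* (red), with group means as lines. *DOF6* differs by -1.07 (mutant-labelled minus wild type), and the other 5 genes are higher by 0.46 to 0.90 on this scale. The subtracted marker mean was itself lower in the mutant-labelled libraries.

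The genes whose profile was most like that of the members were found by the Pearson correlation, over the 6 libraries, of log2(CPM + 0.5) with the mean of the members' standardised profiles. *ARL1* (r = 0.998), AT3G59780 (r = 0.997), *UXS5* (r = 0.997), *OCT5* (r = 0.997) and *GSO1* (r = 0.997) came first among 20290 genes. As 2233 genes reached at least 0.9 over so few libraries, which share the genotype difference and their library, these values describe a pattern that many genes had. The members' own correlations with that profile ran from 0.564 for *PEAR2* to 0.954 for *DOF6*. The 5 genes changed by between -0.37 (*ARL1*) and -1.11 (*GSO1*) (log2 fold change), and their adjusted p in edgeR lay between 0.00590 and 0.0484.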

How the data were processed

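Gene expression was measured by RNA sequencing in 6 libraries, grouped by the genotype label of the stem, with replicate numbers from the titles. The authors deposited raw read counts per locus. Per the submitters' processing notes, the tools were DESeq2, TopHat2 2.0.14 and FastQC 0.11.7, with TAIR10 as the build. The read counter and its strand setting are not stated in the sources used. The authors' deposited comparison table gives, for each gene, p-values, a test score, a log2 fold change and its SE, and a mean normalized signal, per the file headers. Its fold change correlated at -0.94 with mutant over wild type here, so its sign is wild type over mutant, and its signal and score were not used.

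The counts were fitted across all genes with edgeR 4.0.16 in R 4.3.3 (filterByExpr with a minimum count of 10 and a minimum total of 15, TMM factors, robust quasi-likelihood F test of genotype, two-sided, Benjamini-Hochberg threshold 0.05). CPM use TMM-scaled library sizes, SEs were derived from the fold change and F, and intervals are 95%. Libraries held 21364628 to 49929595 counts. The fit was tested on simulated data. Alternatives were DESeq2 1.42.0, its size factors in edgeR, no filter, the replicate number as a block, and each library left out.

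The members and lists were chosen with earlier results of these data known. Lists hold 123 loci. Named genes are the members, *SMXL4* and *SMXL5*, of the other DOF genes up to 4 called in each direction with the largest changes at a mean of at least 1 CPM and the 2 most abundant, of the other lists up to 2 called per direction and the most abundant, of the marker lists the most abundant, and the 5 most alike genes. Coordinates and exon lengths are from the RefSeq annotation of TAIR10.1, and genes without a name there are given by locus code. *PEAR1* and *PEAR2* are named as in the rule that chose them. P-values measure the spread between these pooled libraries. The finger sequence of 1 member is not reported here.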

Additional observations from a re-analysis of the deposited data

How the results depend on the processing

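No member changed sign under any alternative run, though *PEAR2* ran from -0.16 to -8.01e-05 without single libraries, the latter without mutant-labelled replicate 1. Calls that changed were those of *HCA2*, lost without wild type replicate 2, *PEAR1*, gained without wild type replicate 3, and *OBP2*, gained without mutant-labelled replicate 3, in DESeq2 (-0.44), with no filter on low counts (-0.45) and with the replicate number as a block (-0.45, edgeR adjusted p = 0.0440). The causes were not tested. Without single libraries the log2 fold change ran from -0.56 to -0.46 for *HCA2*, from -0.56 to -0.29 for *PEAR1* and from -0.61 to -0.36 for *OBP2*, where the edgeR adjusted p ran from 0.0243 to 0.0509, from 0.0320 to 0.327 and from 0.00700 to 0.165. The number of members that fell ran from 1 to 3.

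Without single libraries, the counts of genes that fell ran from 3 to 6 for the other DOF genes, 1 to 2 for TMO5-LHW and cytokinin perception, 0 to 3 for class III HD-ZIP, 1 to 4 for early phloem regulators and 2 to 4 for the *PXY* network. Those that rose ran from 1 to 5 for the other DOF genes, 0 to 2 for type-A regulators and 0 to 2 for indole glucosinolate genes, and all genes called from 1902 to 5558 against 5053 with all libraries. With no filter, 1 gene of TMO5-LHW and cytokinin perception fell. In DESeq2, 3 indole glucosinolate genes and 1 phloem marker rose.

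Deviations from the group mean correlated at 0.044, 0.069 and -0.032 between libraries with the same replicate number. Between libraries with differing numbers the correlations ran from -0.22 to 0.14. No pairing by number was seen, but deviations within groups of 3 are tied to each other, and a weak pairing was not tested. With the replicate block 3356 genes were called, 1 gene of TMO5-LHW and cytokinin perception fell, and 0 type-A regulators, 1 early phloem regulator and 2 indole glucosinolate genes rose. As shares of CPM without division by exon length, the share of *DOF6* differed by -2.90 percentage points, where it was -4.15 per length, since its exons are the shortest of the 6. With median transcript lengths, an alternative chosen after seeing the data, no share moved by more than the spread between replicates. At 24 to 27 reads in mutant-labelled libraries, *DOF6* was the member most limited by depth.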
